A study of Mus musculus with 16 samples.

Results

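The immunity-related GTPases are a family of large GTPases that mouse cells make in response to interferon gamma. The 7 genes described here were chosen by name: Irgm1, Irgm2, Igtp (also called Irgm3), Iigp1 (Irga6), Ifi47 (Irgd), Tgtp1 and Tgtp2 (Irgb6). All 7 were found among the 31053 genes of the count matrices. In cells infected by a parasite such as Toxoplasma or a bacterium such as Chlamydia, the effector members (Iigp1, Ifi47, Tgtp1 and Tgtp2) load onto the membrane of the vacuole that holds the pathogen and help to break it. The regulatory members (Irgm1, Irgm2 and Igtp) sit on the membranes of the cell itself and keep the effectors inactive there. Interferon gamma raises the genes in part through the transcription factor IRF1, and type I interferons also raise some of them.

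The genes were measured in CD45+ cells, that is in leukocytes, sorted live from subcutaneous flank tumors of C57BL/6J mice (6 to 8 weeks old by the methods of the study) and profiled with a droplet 3′ single-cell RNA-seq kit. There were 4 groups of 4 libraries: untreated MC38 tumors (MC38 NT), MC38 tumors 24 h after a single dose of 12 Gy (MC38 RT), untreated Panc02-SIY tumors (Panc02-SIY NT) and Panc02-SIY tumors 24 h after 12 Gy (Panc02-SIY RT). MC38 cells come from a colorectal carcinoma and Panc02-SIY cells from a pancreatic adenocarcinoma, the second carrying the model antigen SIY. Both models are implanted lines, and the sort for CD45 leaves out tumor cells that lack it. The radiation was aimed by CT at the tumor, and the comparisons ask how the tumor leukocytes differ after radiation in each model and between the models. The series gives 4 animals per group and the methods give 3, and no label ties a library to an animal, so p-values measure the spread between libraries, which may in part be technical.

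Libraries of the same tumor model shared cell barcodes. Only 2632 of the 9843 barcodes of MC38 were distinct. The median overlap of 2 MC38 libraries was 964.5 barcodes (83.3% of those in the smaller one), over all 28 pairs, including pairs of an NT and an RT library. In Panc02-SIY the median overlap was 82 barcodes (5.54%), and between a library of each model the median was 0 over 64 pairs. Each barcode was therefore counted only in the library of its model with the most UMIs (unique molecular identifiers, 1 per captured RNA molecule), which left 20768 of 28678 barcodes, and results for MC38 are also given with all barcodes. With all barcodes, a barcode shared by NT and RT libraries counts in both groups, which can make them more alike. The libraries kept 147 to 609 barcodes and 1385711 to 8500889 UMIs in MC38, and 1113 to 4452 barcodes and 5275195 to 43708746 UMIs in Panc02-SIY. Library 1 of MC38 RT stood apart, with the fewest barcodes kept and 57.2% of its UMIs left out.

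Barcodes were assigned to classes by marker genes. T cells held 34.7% of the kept barcodes, macrophages 18.1%, neutrophils 8.15% and monocytes 3.44%. Another 13.3% carried markers of several classes and entered no class. Macrophages made up 54.4% ± 6.80 (SD, n = 4) of MC38 NT and 45.2% ± 5.98 of MC38 RT barcodes, but 14.04% ± 5.12 of Panc02-SIY NT and 9.73% ± 3.11 of Panc02-SIY RT barcodes. T cells made up 6.15% ± 1.65 and 8.92% ± 4.87 in MC38, against 42.8% ± 4.24 and 34.5% ± 6.43 in Panc02-SIY. Monocytes made up 5.90% ± 2.97 of MC38 NT and 8.99% ± 1.77 of MC38 RT barcodes. Neutrophils were almost limited to Panc02-SIY, at 7.35% ± 2.37 in NT and 12.9% ± 3.44 in RT, with at most 1.04% in any MC38 library. A cluster of 234 barcodes, all of them in Panc02-SIY, was led by the matrix genes Mgp and Dcn and by Fst, with 7 of 8 tumor or stromal cell markers raised. These barcodes were deep, with a median of 6.87 times the median UMIs of their libraries, and the marker gate placed 72 of them in the macrophage class. The cluster held 1.46% to 14.7% of the UMIs of a Panc02-SIY library but 8.42% to 52.4% of its Iigp1 UMIs, and in Panc02-SIY NT library 4 it held 50.02% of the macrophage UMIs and 74.1% of the macrophage Iigp1 UMIs. Calls and class orders that change when it is left out, an alternative chosen after seeing the data, are given with and without it. A level over all CD45+ barcodes moves with the class shares, and in such sums fewer cells of a type cannot be told apart from less RNA per cell.

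All members but Iigp1 lie on chromosome 11 (GRCm38, GENCODE M21 annotation): Irgm1 at chr11:48861968-48871683 on the minus strand, Tgtp1 at chr11:48985327-48994172 (minus), Tgtp2 at chr11:49057194-49064206 (minus), Ifi47 at chr11:49076587-49096974 (plus), Igtp at chr11:58199556-58207591 (plus) and Irgm2 at chr11:58199618-58222782 (plus). These 6 are annotated as protein coding. Irgm2 and Igtp share 162 exonic bases on the same strand, Tgtp1 shares 223 with the GTPase gene Gm12185, and Ifi47 shares 111 with Olfr56. The last 500 bases of the transcripts of Tgtp1 and Tgtp2, the part that a 3′ kit reads, were 100.0% identical, whereas the other pairs of chromosome 11 members compared had 46.7% to 49.6% identity. How reads of this part were divided between Tgtp1 and Tgtp2, and whether they were counted at all, is therefore uncertain. Each is given as it was counted, and their sum was tested as well, a choice made after seeing the data. The sum holds only what was counted, so the levels of both genes may be too low.

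The promoters of 6 members were available from RefSeq (GRCm38.p6) and 5 of them are shown, since 4 hold 2 motifs of interferon-responsive promoters at the same spacing. TTCNNNGAA is the core of the gamma-activated sequence, and IRF factors read repeats of GAAA, here searched as GAAA, any 2 bases and GAAA again (called the GAAA repeat). Each sequence below is the 120 bases before the annotated start, written 5′ to 3′ on the strand of the gene, with matches to either motif in capitals:
Igtp, chr11:58199436-58199555 (plus): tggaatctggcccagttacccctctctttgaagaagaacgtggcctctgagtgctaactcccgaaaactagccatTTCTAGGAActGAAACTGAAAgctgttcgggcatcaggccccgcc
Irgm2, chr11:58214857-58214976 (plus): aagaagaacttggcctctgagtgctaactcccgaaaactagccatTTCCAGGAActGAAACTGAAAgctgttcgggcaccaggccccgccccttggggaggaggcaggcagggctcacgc
Tgtp1, chr11:48992247-48992366 (minus): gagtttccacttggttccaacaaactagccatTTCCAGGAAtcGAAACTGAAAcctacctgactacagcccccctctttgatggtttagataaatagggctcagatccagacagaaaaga
Tgtp2, chr11:49064213-49064332 (minus): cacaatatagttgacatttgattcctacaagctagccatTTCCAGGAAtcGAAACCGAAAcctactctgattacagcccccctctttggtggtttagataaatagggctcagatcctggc
Irgm1, chr11:48871421-48871540 (minus): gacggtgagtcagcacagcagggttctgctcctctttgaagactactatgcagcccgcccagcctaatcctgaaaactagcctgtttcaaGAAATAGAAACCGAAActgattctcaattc

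In Igtp, Irgm2, Tgtp1 and Tgtp2 the GAAA repeat began 11 bases after the start of the TTCNNNGAA match. Among the 250 bases before the start in 32851 promoters of 27025 genes, searched on both strands, 7.02% held TTCNNNGAA, 2.977% held the GAAA repeat and 0.094% held both with starts at most 20 bases apart. The spacing of 11 bases, read along the strand of the gene, occurred in 5 promoters (0.015%), which were those 4 members and Gm12185. The same arrangement on the opposite strand was not counted. The spacing was noticed in the members before it was counted and is given as a description. Irgm1 held 2 overlapping GAAA repeats and no TTCNNNGAA, and Ifi47 held neither in the window searched. A match is a run of letters and not a measured site.

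The class that carried the most of each member differed among members. Levels are given as CPM, the UMIs of a gene scaled to a fixed total of UMIs of the class in a library, with TMM factors set among the libraries of that class, so levels of different classes are shares of each class's own RNA. These counts are not per transcript length, and members are not ranked against each other. In Panc02-SIY, neutrophils had the highest Irgm1 (827 ± 226 CPM, n = 8 libraries, range 479 to 1238) and the highest Irgm2 (200.2 ± 36.2, range 149 to 267). Neither range overlapped that of the next class, which was type 2 conventional dendritic cells (cDCs) for Irgm1 (311 ± 7.48, n = 3) and macrophages for Irgm2 (77.5 ± 15.8, n = 8). The class levels given for a model pool its NT and RT libraries, but all 3 libraries of type 2 cDCs were RT. Neutrophils also led for Igtp (562 ± 107 CPM), Ifi47 (833 ± 179) and Tgtp1 (49.7, range 7.26 to 67.4), with ranges that overlapped those of the next class. The neutrophil class was shallow, with 2149 to 2894 UMIs per barcode on average in a library.

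Iigp1, which lies apart from the others at chr18:60376027-60392634 (plus strand, protein coding), had a different order. In Panc02-SIY it was highest in macrophages (437 ± 92.8 CPM, range 287 to 544), followed by Foxp3+ T cells (395 ± 143) and type 1 cDCs (342 ± 139), whose ranges overlapped, and lowest in neutrophils (22.1 ± 18.8, range 0 to 58.5). The neutrophil and macrophage ranges for Iigp1 did not overlap. Without the stromal cluster, Foxp3+ T cells were highest for Iigp1 (395 ± 143 CPM), followed by macrophages (340 ± 102, range 132 to 458) and type 1 cDCs (195 ± 112). Type 1 cDCs are the dendritic cells that present engulfed antigen to CD8 T cells, and Foxp3+ T cells restrain immune responses. Among lymphocytes in Panc02-SIY, Foxp3+ T cells had 425 ± 113 CPM of Igtp against 178 ± 19.8 in Cd8+ T cells, without overlap of the 8 libraries of each (233 to 622 against 154 to 209). Tgtp2 was highest in type 2 cDCs (48.7 ± 17.9 CPM, n = 3, all RT), followed by other T cells (29.8 ± 9.27), macrophages (24.8 ± 7.33) and neutrophils (23.2 ± 7.55). NK and B cells were low for most members, with Irgm1 at 54.8 ± 17.9 CPM in NK cells and Igtp at 38.7 ± 32.6 in B cells. Except for Irgm1 and Irgm2 in neutrophils, the ranges of neighboring classes overlapped for every member in Panc02-SIY with the stromal cluster included. Without it, other T cells were followed by Cd8+ T cells for Igtp and Iigp1, and those ranges did not overlap. Igtp in type 1 cDCs was 185 ± 84.8 CPM with the cluster and 82.4 ± 45.0 CPM without it.

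In MC38, only 5 classes could be ranked: monocytes, macrophages, Cd8+ T cells, NK cells and other T cells. Neutrophils, B cells, Foxp3+ T cells and the dendritic classes were too few. Among the ranked classes, monocytes (the blood precursors of tumor macrophages) had the highest mean of every member but Iigp1. Ifi47 was 581 ± 170.0 CPM in monocytes (n = 7 libraries) and 260.1 ± 90.8 in macrophages (n = 8), and Irgm1 was 305 ± 70.9 against 179 ± 66.3. Iigp1 was highest in macrophages at 236 ± 149.6 CPM, above monocytes at 134 ± 105, and near the floor in NK cells (6.89 ± 7.78, n = 6). The ranges of monocytes and macrophages overlapped for all 7 members. Macrophages contributed a median of 64.8% of the Iigp1 UMIs in MC38 NT libraries, while holding a median of 58.6% of all UMIs. In Panc02-SIY NT the corresponding values were 19.2% and 5.90%, with the stromal cluster included. That cluster held 67.5%, 43.5%, 0% and 74.1% of the macrophage Iigp1 UMIs in NT libraries 1 to 4. Of all macrophage UMIs it held 30.3%, 26.9%, 0% and 50.02%. Neutrophils held a median of 2.57% of all UMIs in Panc02-SIY NT but 15.1% of the Irgm1 UMIs, and 5.86% and 28.1% in Panc02-SIY RT.

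**Figure D1:**
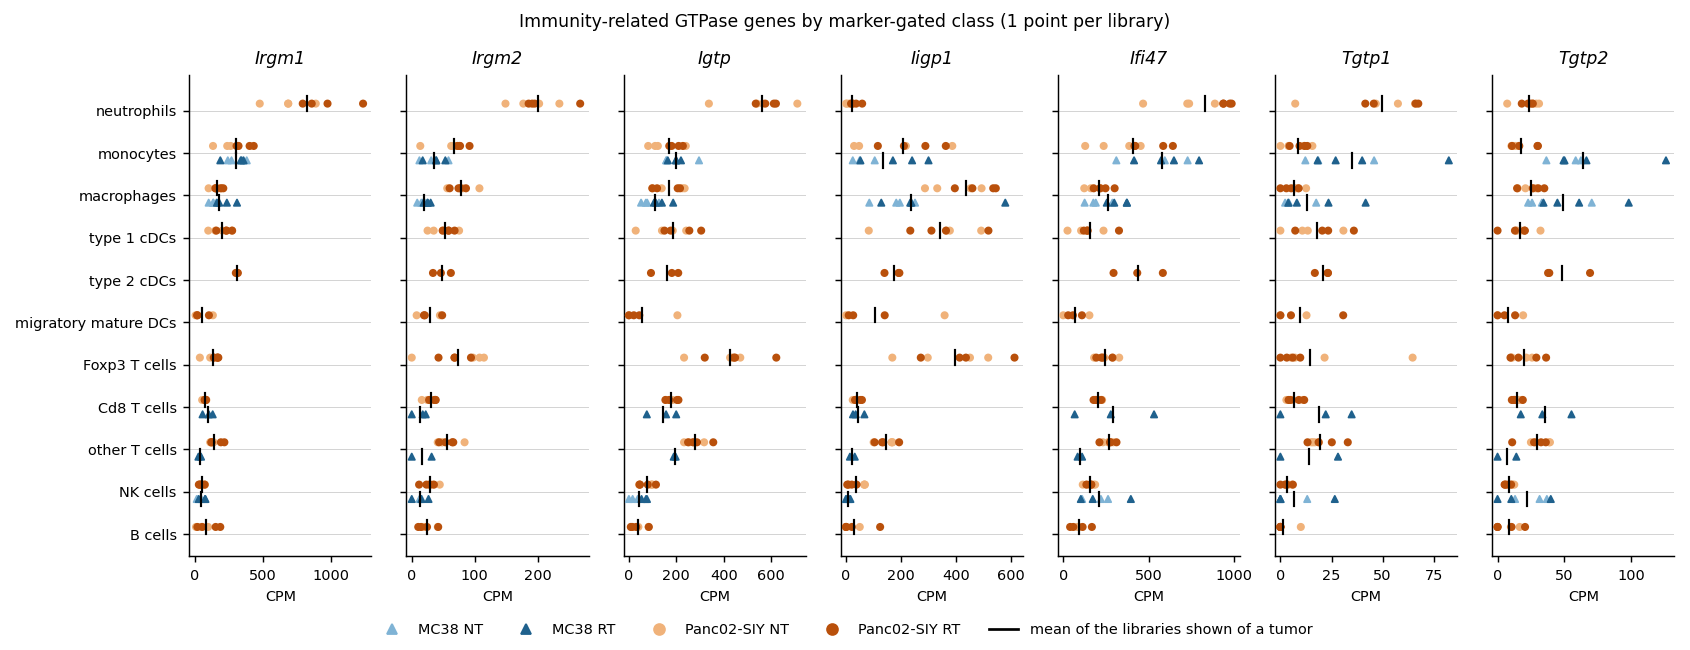
Level of each member (CPM, linear axis) in the marker-gated classes, 1 point per library with at least 10 barcodes of the class, for groups with at least 2 such libraries, and vertical lines at the mean of the libraries shown of a tumor model. Neutrophils of Panc02-SIY lead for Irgm1 and Irgm2 (827 and 200.2 CPM) and are lowest for Iigp1 (22.1 CPM), where macrophages lead with the stromal cluster included (437 CPM).

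After radiation of MC38 tumors, the regulatory members and Ifi47 were higher in the CD45+ cells as a whole. In all CD45+ barcodes, 4 of the 7 members were called higher in MC38 RT than in MC38 NT and none lower, where a call needs a fold above 1.3 together with an adjusted p (Benjamini-Hochberg) under 0.1 in edgeR's quasi-likelihood test of all genes. Of the 12447 genes tested, 11.7% were called in this comparison, 7.24% as higher and 4.45% as lower. The median log2 fold change was 0.60 over the members and 0.04 over all genes tested.

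Igtp, which encodes the regulator that guards the endoplasmic reticulum, was 77.9, 119, 64.5 and 86.6 CPM in the 4 MC38 NT libraries and 185, 137, 119 and 120.3 CPM in the 4 MC38 RT libraries. RT library 3 and NT library 2 met at 119 CPM, and the other RT libraries lay above every NT library (log2 fold change 0.73, SE 0.183, edgeR adjusted p = 0.0208). Irgm2, a regulator of the Golgi and other membranes, was 18.1, 21.7, 10.6 and 17.2 CPM in NT and 35.4, 28.3, 26.0 and 20.3 CPM in RT. The groups overlapped through the lowest RT library (log2 fold change 0.72, SE 0.211, edgeR adjusted p = 0.0433), and the call was lost without NT library 3 (adjusted p = 0.111) or RT library 1 (0.106). Irgm1, the regulator whose loss makes mice susceptible to many intracellular bacteria, was 142, 154, 116 and 150.2 CPM in NT and 241, 226, 169 and 171 CPM in RT. Here the groups did not overlap (0.57, SE 0.155, edgeR adjusted p = 0.0316).

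Ifi47, the effector also known as Irgd, was 196, 286, 166 and 225 CPM in NT and 326, 366, 298 and 264 CPM in RT. The lowest RT library lay under the highest NT library (0.58, SE 0.157, edgeR adjusted p = 0.0309). The other effectors were not called. Iigp1 ranged from 85.7 to 198 CPM in NT and from 130.5 to 376 CPM in RT (0.56, SE 0.381, adjusted p = 0.405). Tgtp1 (0.94, SE 0.395, adjusted p = 0.151) and Tgtp2 (0.60, SE 0.259, adjusted p = 0.161) were highest in RT library 1 and overlapped between groups. Both were called without NT library 2 (adjusted p = 0.0666 and 0.0381) and without RT library 4 (0.0821 and 0.0614), and DESeq2 called Tgtp1 (0.98, adjusted p = 0.0739). The sum of both was not called (0.70, SE 0.281, adjusted p = 0.136). Monocytes had the highest mean of each of the 4 called members among the classes ranked in MC38. Their share was also higher in MC38 RT (means of 5.90% and 8.99%), and its part in these differences was not tested. With all barcodes of every library counted, Irgm2 (0.55), Igtp (0.54) and Ifi47 (0.40) were still called, but Irgm1 was not (0.36, adjusted p = 0.156).

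**Figure D2:**
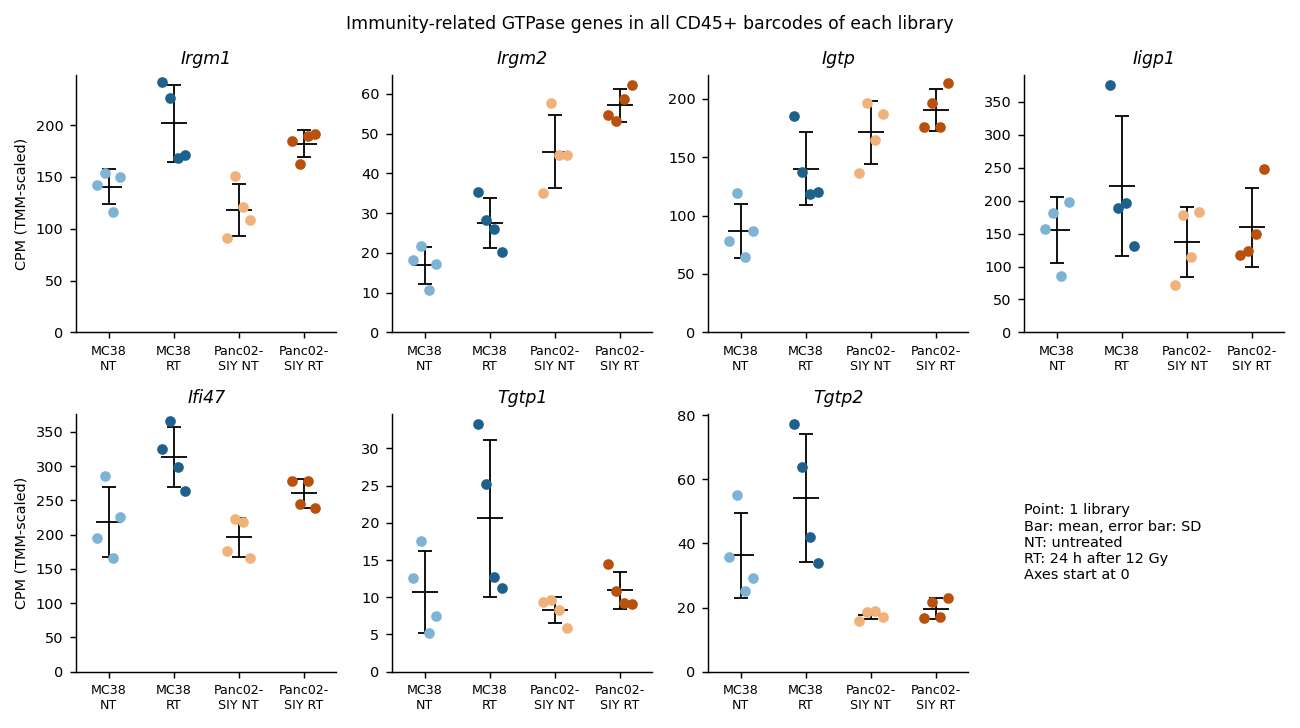
Level of each member (CPM, linear axis from 0) in all CD45+ barcodes of each library by group, with the mean (horizontal line) and SD (error bar) of 4 libraries. Irgm1 is higher in every RT library than in any NT library of the same model, while Irgm2 and Igtp are lower in MC38 NT than in Panc02-SIY NT and Tgtp2 is higher.

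In Panc02-SIY, 1 of the 7 members, Irgm1, was called higher after radiation in all CD45+ barcodes, in a comparison in which 14.7% of 12447 genes were called, 7.69% as higher and 6.99% as lower. Irgm1 was 90.8, 151, 121 and 109 CPM in the NT libraries and 184, 163, 189.8 and 191 CPM in the RT libraries, without overlap (log2 fold change 0.60, SE 0.152, edgeR adjusted p = 0.0150). Ifi47 was 177, 223, 219 and 166 CPM in NT and 278, 245, 279 and 239.6 CPM in RT, also without overlap, and narrowly missed the call (0.39, SE 0.154, adjusted p = 0.109). It was called in the fit of all barcodes (0.38, adjusted p = 0.0392), by DESeq2 (adjusted p = 0.0536), without the filter on low counts (0.0995), with only these groups in the fit (0.0821), without the stromal cluster (0.39, 0.0882) and without any 1 of NT libraries 2 and 3 or RT libraries 2 and 4 (0.0580 to 0.0848). Irgm2 (0.30), Igtp (0.13), Iigp1 (0.19), Tgtp1 (0.38) and Tgtp2 (0.13) had adjusted p-values from 0.298 to 0.804, and their groups overlapped.

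The share of neutrophils, the class with the most Irgm1 and Ifi47, was also higher in Panc02-SIY RT libraries, and monocytes went from 1.27% ± 0.832 to 4.78% ± 0.857 of barcodes. With the neutrophil class left out, an alternative chosen after seeing the data, Irgm1 was still called (0.43, SE 0.158, adjusted p = 0.0878) and Ifi47 was not (0.25, adjusted p = 0.301). Within the neutrophil class, Ifi47 was 468, 889, 727 and 738 CPM in NT and 939.6, 938, 976 and 987 CPM in RT, so every RT library was higher. Irgm1 in neutrophils was 479, 891, 688 and 688 CPM in NT and 861, 795, 977 and 1238 CPM in RT, and the groups overlapped. Within monocytes, mean Irgm1 was 240.1 ± 77.3 CPM in NT and 368 ± 61.5 in RT, with overlap. No fit was run in these classes, so these differences were not tested. Among 9 classes that share no barcode (macrophages, monocytes, neutrophils, NK cells, B cells, type 1 cDCs, Cd8+, Foxp3+ and other T cells), mean Irgm1 was higher after radiation in 8 classes of Panc02-SIY and mean Tgtp2 in 3. The count was 7 for Ifi47 and Iigp1, 6 for Igtp, and 5 for Irgm2 and Tgtp1. For Irgm1, every RT library lay above every NT library in 0 of the 9 classes. How many of all genes reach such counts was not determined.

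In macrophages, the cells that clear vacuolar pathogens with the help of these GTPases, 2 of 7 members were called higher in MC38 RT than in NT, against 4.39% of 9942 genes called, 2.61% as higher and 1.78% as lower. Irgm1 was 136, 161, 104 and 138 CPM in NT and 312, 237, 181 and 165 CPM in RT. The groups did not overlap (log2 fold change 0.74, SE 0.202, edgeR adjusted p = 0.0602). Ifi47 was 177, 288, 125 and 191 CPM in NT and 374, 372, 299 and 255 CPM in RT, with overlap (0.75, SE 0.230, adjusted p = 0.0935). The fitted differences of the other 5 members lay between 0.62 and 1.39 with adjusted p-values from 0.195 to 0.451. For Iigp1 in these cells, the 4 RT libraries were spread from 128 to 579 CPM, with library 1 more than any NT library.

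These macrophage calls depended on the libraries and barcodes used. With all barcodes counted, none of the 7 was called (Irgm1 0.36, adjusted p = 0.586). Irgm1 lost its call without any 1 of NT libraries 1, 3 and 4 and RT libraries 1 and 2 (adjusted p = 0.153 to 0.215). Ifi47 lost its call without any 1 of NT libraries 1, 3 and 4 and RT libraries 1, 2 and 3 (0.162 to 0.288). Without NT library 2, Tgtp1 and Tgtp2 were called (2.21 and 1.06, adjusted p = 0.0923 and 0.0742). With macrophages taken from named clusters instead of the marker gate, 4 members were called: Irgm1 (0.53, adjusted p = 0.0753), Irgm2 (0.60, 0.0635), Igtp (0.75, 0.0392) and Ifi47 (0.60, 0.0237).

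In Panc02-SIY macrophages no member was called after radiation and none had an unadjusted p below 0.05 in edgeR, and DESeq2 also called none, while 2.44% of 9942 genes were called (1.71% higher and 0.734% lower). Irgm1 was 103, 195, 153 and 174 CPM in NT and 153, 211, 158 and 193 CPM in RT, so the groups overlapped (0.20, SE 0.214, adjusted p = 0.688). Ifi47 had the lowest p of the 7 (0.42, SE 0.243, adjusted p = 0.399), and Igtp (-0.11, SE 0.324), Irgm2 (-0.15, SE 0.225) and Tgtp1 (-0.45, SE 0.915) had negative fitted differences. Without the stromal cluster these 3 differences were positive (0.47, 0.04 and 0.84) and no member was called, and Ifi47 was 0.57 (adjusted p = 0.269).

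**Figure D3:**
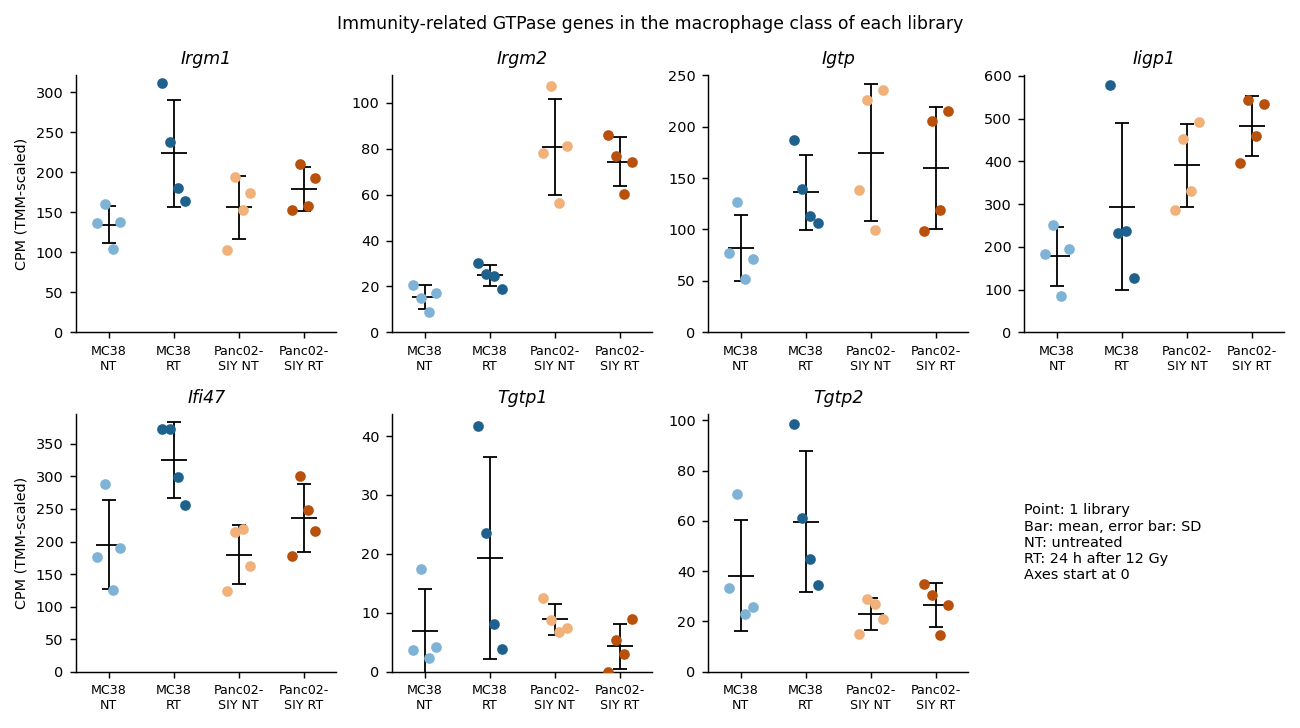
Level of each member (CPM, linear axis from 0) in the macrophage class of each library by group, with the mean (horizontal line) and SD (error bar) of 4 libraries. Irgm2 is lower in every MC38 library than in any Panc02-SIY library, and library 1 of MC38 RT is the highest MC38 library for every member.

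T cells gave no called difference with radiation. In MC38, where 4 NT and 3 RT libraries held 15 to 49 T cell barcodes each, edgeR called none of 7 members against 0.445% of 9892 genes (0.334% higher and 0.111% lower), 2 had an unadjusted p below 0.05, and DESeq2 called none. Irgm2 was 11.6, 0, 21.8 and 0 CPM in NT and 36.0, 26.1 and 38.4 CPM in RT, without overlap, on 0 to 3 UMIs per NT library and 4 to 8 per RT library (1.77, SE 0.694, edgeR adjusted p = 0.366). With T cells taken from named clusters it was called (2.10, adjusted p = 0.0762). In Panc02-SIY T cells, with 288 to 1679 barcodes per library, edgeR and DESeq2 called none against 7.13% of 9892 genes (2.9% higher and 4.23% lower), and 1 member had an unadjusted p below 0.05. Irgm2 there was 28.0, 41.4, 37.2 and 26.8 CPM in NT and 50.1, 39.3, 37.3 and 43.8 CPM in RT (0.36, SE 0.167, adjusted p = 0.247).

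Dendritic cells could be tested only in Panc02-SIY, with 25 to 86 barcodes per library, since MC38 libraries held 3 to 13. No member was called by edgeR or DESeq2 and no gene was called by edgeR (0% of 8797, with 523 genes at an unadjusted p below 0.05 and 17 called higher and 2 lower by DESeq2), although 2 members had an unadjusted p below 0.05. Ifi47 was 101, 99.2, 28.5 and 149.9 CPM in NT and 282, 161, 255 and 177 CPM in RT, without overlap (1.13, SE 0.388, edgeR adjusted p = 0.700). Without the stromal cluster, which held 44.1% of the dendritic UMIs in NT library 4 and 31.9% in RT library 4, Ifi47 was called as higher (97.2, 59.4, 26.4 and 78.4 CPM in NT against 312, 177, 235 and 182 CPM in RT, 1.76, SE 0.326, edgeR adjusted p = 0.0334). The make-up of the class also differed, with 22 type 2 cDC barcodes in NT and 59 in RT. Markers of type 2 cDCs summed to 270 to 829 CPM in NT and 645 to 1338 CPM in RT, while those of type 1 cDCs summed to 16085 to 23932 and 12296 to 17148 CPM. Mean Ifi47 was 438 CPM in type 2 cDCs, which were measured in 3 RT libraries only. In type 1 cDCs it was 127 CPM in NT and 183 CPM in RT. The part of this make-up in the difference was not tested. Irgm2 was 30.01, 41.8, 20.7 and 34.1 CPM in NT and 45.5, 51.4, 50.7 and 54.1 CPM in RT, also without overlap (0.62, SE 0.273, adjusted p = 0.808). Iigp1, at a mean of 246 ± 176 CPM in NT and 255 ± 88.9 in RT, showed no detectable difference at this depth. Of the dendritic Irgm2 UMIs, the stromal cluster held 0%, 79.2%, 25% and 82.0% in NT libraries 1 to 4. In RT libraries 1 to 4 it held 18.2%, 29.0%, 17.9% and 71.1% of them. Of the dendritic Iigp1 UMIs it held 0%, 63.45%, 39.1% and 83.8% in NT and 27.3%, 57.0%, 24.0% and 76.8% in RT. These Irgm2 and Iigp1 levels are therefore not those of dendritic cells alone.

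Whether the response to radiation differed between the models was tested as an interaction. No member was called in any population, against 0.345% of genes in all CD45+ barcodes and 0% in macrophages and in T cells (547 and 600 genes at an unadjusted p below 0.05). In all CD45+ barcodes 1 member, Igtp, had an unadjusted p below 0.05 (0.60 higher change in MC38, SE 0.253, edgeR adjusted p = 0.348). In macrophages the single member was Irgm2 (0.79, SE 0.331, adjusted p = 0.896), and in T cells there was none. DESeq2 called none of the members either. A member called in MC38 and not in Panc02-SIY is thus not shown to differ between them.

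**Figure D4:**
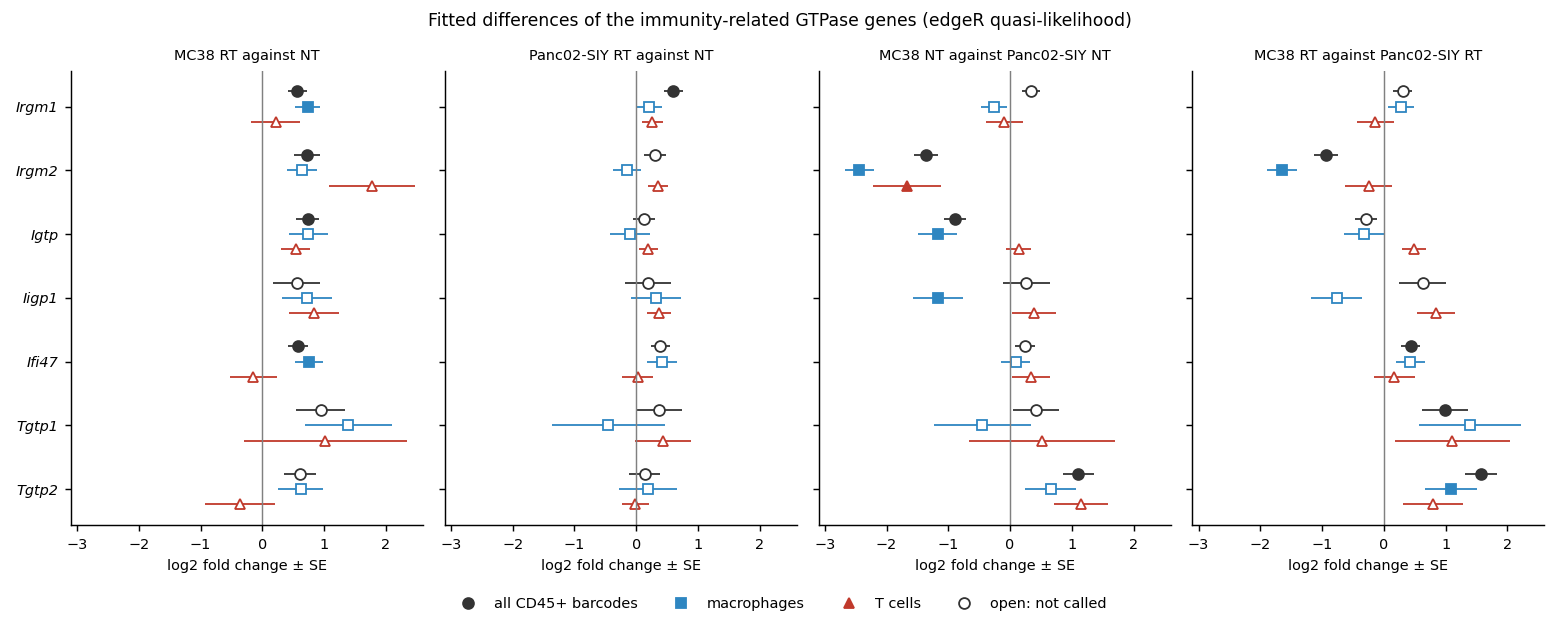
Log2 fold change (± SE, edgeR) of each member in 4 comparisons for all CD45+ barcodes, macrophages and T cells, with filled symbols for calls and open symbols for differences that were not called. All 7 members lie above 0 in MC38 RT against NT for CD45+ barcodes and macrophages, and Irgm2 is the lowest member in each comparison between the models.

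Between untreated tumors, the member that differed most between the models was Irgm2. In all CD45+ barcodes of untreated tumors, 3 of 7 members were called between MC38 and Panc02-SIY, against 61.1% of 12447 genes (29.1% higher and 32% lower in MC38). Irgm2 was 10.6 to 21.7 CPM in MC38 NT and 35.1 to 57.7 CPM in Panc02-SIY NT (-1.36, SE 0.196, adjusted p = 1.6e-05 in edgeR), without overlap. Igtp was also lower in MC38 without overlap, at 64.5 to 119 against 136 to 196 CPM (-0.89, SE 0.179, adjusted p = 4.2e-04). Tgtp2 was higher in MC38, at 25.1 to 55.0 against 15.9 to 18.9 CPM (1.10, SE 0.254, adjusted p = 0.00139), Tgtp1 was not called (0.42, SE 0.378, adjusted p = 0.345), and their sum was called as higher (0.93, SE 0.276, adjusted p = 0.00852). Irgm1 differed by less than the fold limit (0.34, adjusted p = 0.0622), and was called as higher in MC38 with all barcodes (0.40, adjusted p = 0.0122), without the neutrophil class (0.53, 0.00865), without the stromal cluster (0.40, 0.0247), without MC38 NT library 3 (0.42, 0.0332) or without Panc02-SIY NT library 2 (0.49, 0.00985). Iigp1 was also called as higher in MC38 without the stromal cluster (0.71, SE 0.347, adjusted p = 0.0857). In the 3 classes compared before radiation, mean Iigp1 without the cluster, over NT and RT, was lower in MC38. It was 231 against 340 CPM in macrophages, 135 against 160 in monocytes and 6.94 against 18.8 in NK cells. Macrophages made up 54.4% of MC38 NT and 14.04% of Panc02-SIY NT barcodes, and the part of these shares was not tested.

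After radiation, 4 of 7 were called between the models in all CD45+ barcodes, against 58.5% of genes (29.9% higher and 28.6% lower in MC38). Irgm2 was lower in MC38 RT, at 20.3 to 35.4 against 53.1 to 62.3 CPM (-0.94, SE 0.196, edgeR adjusted p = 6.3e-04). Tgtp2 was higher, at 33.8 to 77.3 against 16.8 to 23.0 CPM (1.57, SE 0.258, adjusted p = 9.6e-05), and neither pair of groups overlapped. The sum of Tgtp1 and Tgtp2 was also called (1.41, SE 0.280, adjusted p = 5.3e-04). Tgtp1 (0.99, SE 0.377, adjusted p = 0.0339) and Ifi47 (0.43, SE 0.155, adjusted p = 0.0245) were called as higher in MC38 but lost the call with all barcodes (0.47 and 0.37). The fold of Ifi47 was also under the limit with DESeq2 (0.37). Without the neutrophil class both were called (1.34 and 0.66), and so was Irgm1 (0.67, adjusted p = 0.00191). Tgtp1 also lost it without any 1 of MC38 RT libraries 1 and 2 or Panc02-SIY RT libraries 3 and 4 (adjusted p = 0.105 to 0.115). Ifi47 lost it without MC38 RT library 2 or Panc02-SIY RT library 2, 3 or 4 (0.30 to 0.37). Without the stromal cluster Iigp1 was called as higher too (0.83, adjusted p = 0.0529). Its mean over NT and RT was then lower in MC38 macrophages (231 against 340 CPM), monocytes, NK cells and other T cells. In Cd8+ T cells it was 42.1 against 38.7 CPM. Macrophages made up 45.2% of MC38 RT and 9.73% of Panc02-SIY RT barcodes, and the part of these shares was not tested. Without a single library, Igtp (MC38 RT library 1 or Panc02-SIY RT library 3, -0.44 and -0.41), Iigp1 (library 4 of either RT group, 0.83) and Irgm1 (MC38 RT library 3 or 4, 0.38 and 0.39) were called instead.

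Within macrophages the fitted difference in Irgm2 was larger. In untreated tumors 3 of 7 members were called as lower in MC38 macrophages and none as higher, against 42.8% of 9942 genes (20.7% higher and 22.1% lower). Irgm2 was 20.8, 15.1, 8.71 and 17.1 CPM in MC38 NT and 78.0, 107, 56.3 and 81.2 CPM in Panc02-SIY NT, and no MC38 library reached the lowest Panc02-SIY library (-2.44, SE 0.231, edgeR adjusted p = 2.9e-07). Iigp1 was 182, 251, 84.5 and 195 CPM in MC38 and 287, 452, 331 and 492 CPM in Panc02-SIY, without overlap (-1.17, SE 0.406, adjusted p = 0.0372), and lost its call without Panc02-SIY NT library 4 (-1.06, 0.117). Igtp was 51.4 to 127 against 99.2 to 235 CPM, with overlap (-1.17, SE 0.321, adjusted p = 0.00936). Both calls depended on the stromal cluster, without which Iigp1 (-0.73, adjusted p = 0.249) and Igtp (-0.41, adjusted p = 0.309) overlapped between the models and were not called, while Irgm2 was called as before (-2.32, SE 0.222, adjusted p = 1.5e-08). Irgm1 (-0.26) and Ifi47 (0.09) were not called (adjusted p = 0.349 and 0.800). After radiation, 2 were called against 37.7% of genes (18.6% higher and 19.2% lower): Irgm2 remained lower in MC38 (30.01, 25.5, 24.7 and 18.9 against 86.1, 77.0, 60.1 and 74.1 CPM, -1.65, SE 0.240, adjusted p = 4.2e-05) and Tgtp2 was higher (1.09, SE 0.424, adjusted p = 0.0626), as was the sum of Tgtp1 and Tgtp2 (1.22, SE 0.484, adjusted p = 0.0702).

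The call of Tgtp2 in irradiated macrophages was lost with all barcodes (0.44, adjusted p = 0.231), without the stromal cluster (0.74, adjusted p = 0.280) and without MC38 RT library 1 or 2 or Panc02-SIY RT library 3 or 4 (adjusted p = 0.116 to 0.171). Without MC38 RT library 1, Iigp1 was called as lower in irradiated MC38 macrophages (-1.32, adjusted p = 0.0048), as it was with all barcodes (-1.16, adjusted p = 5.7e-04). Tgtp1 was called as higher without MC38 RT library 4 (1.89, adjusted p = 0.0671) and by DESeq2 (1.86, adjusted p = 0.0582).

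The macrophage classes of the models also differed in other measures. The summed level of 10 macrophage markers was 24058 to 30370 CPM in MC38 macrophages and 6227 to 13308 CPM in Panc02-SIY macrophages, with no marker at 0. Neutrophil markers (8, none at 0) summed to 48.0 to 72.6 CPM in MC38 macrophages and 34.8 to 151 in Panc02-SIY macrophages, and T cell markers (8, none at 0) to 12.9 to 35.0 and 37.5 to 128 CPM. Tumor or stromal cell markers (8, none at 0) summed to 57.8 to 92.3 CPM in MC38 and 42.8 to 783 CPM in Panc02-SIY macrophages, and B cell markers (8, none at 0) to 35.0 to 131 and 101 to 259 CPM. Libraries had 10624 to 20632 UMIs per macrophage barcode on average in MC38 and 2268 to 4966 in Panc02-SIY. Of the MC38 macrophages, 49.7% (NT) and 48.3% (RT) fell in cluster 5, led by Arg1, Ccl12 and Apoe. Of the Panc02-SIY macrophages, 58.5% and 58.1% fell in cluster 2, led by Ccl8 and Mmp12, which stayed unnamed because its barcodes were shallow and none of its 10 leading genes was a macrophage marker. With macrophages taken from the named clusters, which leave cluster 2 out, Irgm2 was still lower in MC38 (-2.05 in NT and -1.66 in RT, SE 0.199 and 0.200). There Igtp in NT was also lower (-1.02, adjusted p = 0.00232), while Iigp1 was not called (-0.81, adjusted p = 0.140). In RT, Ifi47 (0.80, adjusted p = 0.00116) and Tgtp1 (1.66, 0.0632) were called as higher in MC38, and Tgtp2 was not (0.42, 0.392). The part of these differences in the results was otherwise not tested. No label gives a batch, and the tumor model and anything processed along with it cannot be told apart.

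Outside macrophages, mean Irgm2 was also lower in MC38 in each class with at least 2 libraries in both groups compared. Mean Irgm2 was lower in MC38 in 3 of 3 classes that share no barcode before radiation (macrophages, monocytes and NK cells) and in 5 of 5 after it (with Cd8+ and other T cells), and in 4 of those 5 the RT libraries did not overlap. In MC38 RT, Cd8+ T cells had 0 to 22.2 CPM in 3 libraries of 10 to 24 barcodes. Other T cells had a mean of 15.8 CPM in 2 libraries of 17 and 20 barcodes, so both were near the floor. The 1 MC38 NT library with enough other T cells (13 barcodes) had 64.7 CPM, above the Panc02-SIY NT mean of 55.3 CPM. The share of all genes with such a pattern was not counted. In NK cells Irgm2 was 12.3, 15.8 and 13.1 CPM in MC38 NT and 28.0, 33.2, 44.5 and 27.4 CPM in Panc02-SIY NT, where each MC38 value is a single UMI. In monocytes of RT tumors it was 53.3, 38.4, 39.1 and 17.4 CPM in MC38 and 91.7, 72.6, 76.7 and 75.6 CPM in Panc02-SIY. Iigp1 means were lower in MC38 in 3 of 3 and 5 of 5 classes, but the libraries did not overlap in only 1 class each time. In Cd8+ T cells of RT tumors they were 42.2 CPM in MC38 and 44.4 CPM in Panc02-SIY. Without the stromal cluster, mean Iigp1 over NT and RT was 340, 160 and 18.8 CPM in Panc02-SIY macrophages, monocytes and NK cells. The MC38 means were then 231, 135 and 6.94 CPM. Mean Igtp, with the cluster included, was lower in MC38 in 2 of 3 classes before radiation and in 5 of 5 after it. The libraries of Igtp did not overlap in 1 class each time. Mean Tgtp2 was higher in MC38 in 3 of 3 classes before and in 4 of 5 after radiation, and mean Tgtp1 in 2 of 3 and 4 of 5. In monocytes Tgtp2 was 62.5, 58.6 and 36.6 CPM in MC38 NT against 10.4 to 15.8 CPM in Panc02-SIY NT.

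In T cells of untreated tumors Irgm2 was the 1 member called between the models, against 12.1% of 9892 genes (4.71% higher and 7.43% lower). It was 11.6, 0, 21.8 and 0 CPM in MC38 and 26.8 to 41.4 CPM in Panc02-SIY, so the groups did not overlap (-1.67, SE 0.556, edgeR adjusted p = 0.0634). The call rests on 15 to 26 MC38 barcodes per library and was lost with DESeq2 (-1.50, adjusted p = 0.149), with only these groups in the fit (0.127), and without MC38 NT library 1, 2 or 4 or Panc02-SIY NT library 2 or 3 (0.119 to 0.171). Tgtp2 was called as higher in MC38 by DESeq2 (1.32, adjusted p = 0.0172) and without MC38 NT library 2 or Panc02-SIY NT library 1 or 3 (0.0669 to 0.0969). After radiation edgeR called none against 8.86% of genes (4.44% higher and 4.42% lower), with 2 at an unadjusted p below 0.05, and DESeq2 called Igtp (0.55, adjusted p = 0.0144) and Iigp1 (0.91, 0.0387). Iigp1 was called by edgeR without Panc02-SIY RT library 1 (0.96, adjusted p = 0.0700). The T cell subclasses measured in both RT groups had the other direction. Mean Igtp was 144 CPM in MC38 and 184 in Panc02-SIY for Cd8+ T cells, and 193 and 291 for other T cells. Mean Iigp1 was 42.2 and 44.4 CPM for Cd8+ T cells, and 22.8 and 141 for other T cells. Foxp3+ T cells were too few to be measured in MC38.

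Scaling mattered in T cells, where the median log2 difference of all genes between untreated models was -0.13 with TMM and 0.04 with DESeq2. Between untreated models edgeR called 466 genes higher and 735 lower in MC38 T cells, and DESeq2 called 1011 and 373. Macrophage markers summed to 531 to 1108 CPM in MC38 T cells and 67.4 to 183 CPM in Panc02-SIY T cells, with none of 10 at 0. The 3 markers of regulatory T cells, which had high Igtp and Iigp1 in Panc02-SIY, summed to 665 to 1861 and 326 to 838 CPM. Their part in the T cell results was not tested.

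The interferon gamma pathway around the members changed in part. Ifng, the ligand, was measured mostly in T and NK cells. In T cells it was 308 ± 252 CPM (n = 4) in MC38 NT, 684 ± 191 (n = 3) in MC38 RT, 495 ± 55.8 (n = 4) in Panc02-SIY NT and 540 ± 254 (n = 4) in Panc02-SIY RT. In all CD45+ barcodes it was called higher after radiation in MC38 (24.6 ± 20.4 to 83.6 ± 68.5 CPM, log2 fold change 1.79, SE 0.603, edgeR adjusted p = 0.0805), and in Panc02-SIY it was 266 ± 66.0 and 263 ± 114 CPM (-0.04, adjusted p = 0.977). Between untreated models it was lower in MC38 (-3.38, adjusted p = 2.3e-04). T cells made up 6.15% of MC38 NT, 8.92% of MC38 RT and 42.8% of Panc02-SIY NT barcodes. The part of these shares in both Ifng calls was not tested. Within T cells, Ifng was not called after radiation in MC38. Ifngr1, a receptor chain, was 282 ± 12.3 CPM in MC38 NT and 286 ± 9.83 in MC38 RT in all CD45+ barcodes. It was 405 ± 73.8 CPM in Panc02-SIY NT and 507 ± 81.6 in Panc02-SIY RT, and was not called after radiation in either model. Of the 11 genes of the ligand, receptor and signaling list, 4 were called higher after radiation in each model and none lower. In MC38 these were Ifng, the kinase Jak2 (0.67), the feedback inhibitor Socs1 (0.88) and the transcription factor Irf1 (0.58, adjusted p = 0.0947). In Panc02-SIY they were the receptor chain Ifngr2 (0.61), Irf8 (0.50), Socs3 (0.81) and Jak2 (0.51). Irf1 was not called in Panc02-SIY, though every RT library (381 to 462 CPM) lay above every NT library (275 to 336 CPM). In MC38 the Irf1 ranges overlapped, at 122 to 221 CPM in NT and 188 to 373 CPM in RT. Of all genes, 7.24% were called as higher in MC38 and 7.69% in Panc02-SIY. Mean Ifngr2 in Panc02-SIY NT and RT was 122.7 and 126.4 CPM in neutrophils and 130.6 and 135.2 in monocytes. In macrophages it was 85.6 and 112.7 CPM. Neutrophils and monocytes also held larger shares of the RT barcodes, and their part in the Ifngr2 call and the Irf1 levels was not tested. Within macrophages 2 of the 11 genes were called higher after radiation in MC38 and 0 in Panc02-SIY, against 2.61% and 1.71% of all genes.

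The other GTPases of the pathway followed different counts. The guanylate-binding proteins, larger GTPases that act at the same vacuoles, had 3 of 10 tested genes called higher after radiation in MC38 (Gbp9 0.65, Gbp4 1.00 and Gbp5 0.74) and 2 of 10 in Panc02-SIY (Gbp2 1.07 and Gbp5 0.93), with none lower. The shares of all genes called as higher were 7.24% in MC38 and 7.69% in Panc02-SIY. Between untreated models 6 of 10 were called as lower in MC38 and none as higher, where 32% of all genes were called as lower, including Gbp2b (-3.41), Gbp4 (-1.57) and Gbp8 (-1.07). Without the stromal cluster 5 were lower and 1 was higher. In macrophages 6 of 9 tested were lower, against 22.1% of all genes, with Gbp2b at -5.56 and Gbp8 at -1.80. The median of the list between untreated models in all CD45+ barcodes was -0.56, against -0.04 over all genes and 0.27 over the 7 members. Of 9 other immunity-related GTPase genes tested, 2 were called higher after radiation in MC38 (9930111J21Rik2 0.49 and Gm5431 0.68) and 1 in Panc02-SIY (Gm5431 1.00). With 9 genes tested, 1 call is close to the share of 7.69% of all genes in Panc02-SIY. Gm5431 was also higher in untreated MC38 than in untreated Panc02-SIY (2.94, adjusted p = 7.4e-08), while Gm12185, which shares exonic bases with Tgtp1, was lower (-1.08, adjusted p = 0.00572).

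Of 23 interferon gamma targets tested, which include antigen-processing genes and chemokines, 4 were called higher after radiation in each model and none lower. Parp14 (0.89) and Cd274 (1.15), the gene of the checkpoint ligand PD-L1, were among those in MC38, and Cxcl10 (1.41) and Ciita (0.81) among those in Panc02-SIY. Here 7.24% and 7.69% of all genes were called as higher after radiation. Between untreated models 11 of the 23 were called as higher in MC38 and 1 as lower (median 0.36), against 29.1% and 32% of all genes. In macrophages the counts were 7 and 1, against 20.7% and 22.1%. Without the stromal cluster the macrophage counts were 4 and 4. Of 19 targets of type I interferon, 16 were called higher in MC38 RT and 17 in Panc02-SIY RT in all CD45+ barcodes, with medians of 0.79 and 0.91. Examples were Mx1 (1.38 and 1.47) and Oas2 (0.84 and 1.40). Within classes fewer were called higher. In macrophages these were 12 in MC38 and 6 in Panc02-SIY of 19, where 2.61% and 1.71% of all genes were. In T cells 0 and 2 of 18 were, against 0.334% and 2.9%. In Panc02-SIY dendritic cells 0 of 19 were, and no gene was called there. The medians of the list after radiation in MC38 and Panc02-SIY were 0.73 and 0.77 in macrophages and 0.76 and 0.41 in T cells. In Panc02-SIY dendritic cells the median was 1.05. Between untreated models 18 of 19 were called as higher in MC38 in all CD45+ barcodes and none as lower (median 1.71, with Oas1a at 3.08 and Irf7 at 2.83). This direction was opposite to that of Irgm2 and Igtp and the same as that of Tgtp2. None of the 10 genes of the conjugation machinery that helps to place these GTPases on membranes (such as Atg5, Atg7 and Gabarap) was called by edgeR after radiation in either model in all CD45+ barcodes, and 1 was called as higher in MC38 RT without the stromal cluster. In T cells of Panc02-SIY 1 of them, Sqstm1, was called as higher (0.42, adjusted p = 0.0918). No gene of these lists was called in the interaction in all CD45+ barcodes, and 1 interferon gamma target was without the stromal cluster.

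**Figure D5:**
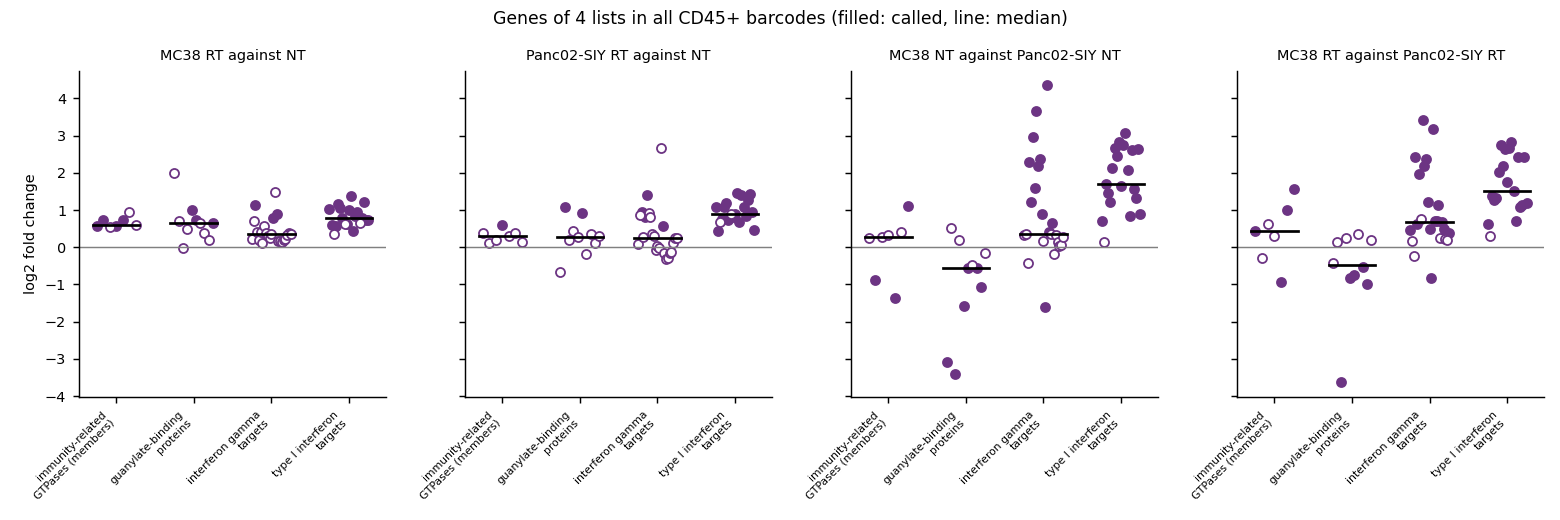
Log2 fold change of the genes of 4 lists in all CD45+ barcodes for 4 comparisons, 1 point per gene tested (filled when called) with lines at the median. Type I interferon targets have medians of 0.79 and 0.91 after radiation and 1.71 between untreated models, where guanylate-binding proteins have a median of -0.56.

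Over 29 combinations of class and group, the genes whose log2 CPM was most like the mean of the 7 members, among 6167 genes with a mean of at least 20 CPM, were Pgs1 (Pearson r = 0.84), Gbp2 (0.83), Myd88 (0.81), Slfn1 (0.80), Cited2 (0.80), Zbp1 (0.80), Parp9 (0.79), Gna13 (0.79), Tapbp (0.78) and Plk3 (0.78). The points share libraries, and classes that differ in depth, so the values are descriptions. Gbp2, Zbp1 and Tapbp are on the interferon lists above, and Myd88 encodes the adaptor of Toll-like receptors. Against the mean of the other 6 members, r was 0.84 for Irgm1, 0.77 for Igtp, 0.71 for Ifi47, 0.66 for Irgm2, 0.63 for Tgtp1, 0.57 for Tgtp2 and 0.35 for Iigp1. In Panc02-SIY, Iigp1 had its lowest mean in neutrophils (22.1 CPM), close to B cells (27.8) and NK cells (35.1). Neutrophils had the highest mean of Irgm1, Irgm2, Igtp, Ifi47 and Tgtp1 there, and the part of this in r was not tested.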

How the data were processed

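The deposited files hold raw UMI counts per gene and cell barcode that the authors made from 10x 3′ (v3.0) libraries, 1 matrix per library. The submitters' processing notes name bcl2fastq 2.20.0, Cell Ranger 3.1.0 and mm10, and the gene annotation is not given in the sources used here. An aggregated matrix was not used. All called barcodes entered, with no cell filter and no doublet caller, and barcodes with markers of several classes were left out of the classes. Totals ran from 1385711 to 43708746 UMIs per library.

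A barcode went to the class with the highest share of its markers detected, from at least 2 markers (1138 barcodes had exactly that number). Clusters came from scanpy 1.11.5 and leidenalg 0.10.2 (2000 variable genes, 30 principal components, 20 neighbors, resolution 1). Among barcodes in named clusters that the gate had also placed in a class, the class was the same by both routes for 96.2%. Barcodes that the gate placed in no class did not enter this share. Counts were summed per library and class (at least 10 barcodes) and tested with edgeR 4.0.16 under R 4.3.3 (filterByExpr, TMM factors, robust quasi-likelihood, 1 coefficient for each of 4 groups) in contrasts with at least 2 libraries per group, and the calls follow the thresholds in the methods of the study. Profiles used log2(CPM + 1). Fits were tested on simulated data.

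Members were counted in every comparison, and single members are named where a call or a value is described. Up to 4 called genes of lowest adjusted p are named from each related list. The genes Ifng, Ifngr1, Ifngr2 and Irf1 and the 10 genes most like the members are named as well. A further gene of this rule is not reported here. The members and lists were chosen with earlier results of these data known. Alternatives were RLE scaling, DESeq2 1.42.0, no filter on low counts, a replicate block, only the groups compared, each library left out, all barcodes, a cell filter, classes from clusters and, chosen after seeing the data, no neutrophils, no barcodes of clusters with most tumor or stromal markers raised, Tgtp1 and Tgtp2 summed and dendritic libraries of at least 3 barcodes.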

Additional observations from a re-analysis of the deposited data

Results flagged for a closer look

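Dixon's test for a library far from the other 3 of its group was applied to 91 groups of members, and chance flags about 1 in 20 groups. Irgm1 in T cells of Panc02-SIY NT library 4 was 62.3 CPM, below the other 3 libraries at 90.6 to 96.2 CPM. Tgtp1 in macrophages of MC38 NT library 2 was 17.5 CPM, above the other 3 at 2.32 to 4.19 CPM. Tgtp1 shares its transcript end with Tgtp2, which was also highest in that library among MC38 NT macrophages (70.6 CPM, others 22.9 to 33.2). No difference between the models in the response of a member passed the interaction test.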

How the results depend on the processing

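No called difference of a member changed its direction under an alternative. Over single members and settings, 1903 results kept their side of the call, 62 gained a call and 54 lost one. In all CD45+ barcodes of Panc02-SIY RT against NT, 2 members were called in place of 1 with RLE factors, with DESeq2, without the filter on low counts, with only the groups compared, with the replicate block, with all barcodes and without the stromal cluster. Between untreated models 5 were called in place of 3 without the stromal cluster, 4 were called in place of 3 with all barcodes, with the cell filter and without neutrophils, and between irradiated models 3 in place of 4 without the filter, 2 with all barcodes and 5 without the stromal cluster. In macrophages of MC38 RT against NT (2 called), 1 was called without the filter, with only the groups compared and with the cell filter, 0 with all barcodes, and 4 with the replicate block and with classes from clusters. Between untreated macrophages (3 called), 1 was called without the stromal cluster. Between irradiated macrophages (2 called), 1 was called without the stromal cluster, 3 were called with DESeq2, the replicate block and clusters, 1 without the filter, and 2 with all barcodes (Iigp1 as lower in place of Tgtp2 as higher). In T cells, MC38 RT against NT gave 1 with clusters in place of 0. Untreated models gave 1 (Tgtp2 instead of Irgm2) with RLE factors and DESeq2, 0 with only the groups compared and 2 with clusters, in place of 1. Irradiated models gave 2 with RLE factors and DESeq2, and 1 without the filter and with only the groups compared, in place of 0.

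Leaving out 1 library at a time gave 3 to 6 calls (MC38 RT against NT), 1 to 2 (Panc02-SIY RT against NT), 3 to 4 (untreated models) and 2 to 6 (irradiated models) in all CD45+ barcodes. In macrophages it gave 0 to 4, 0, 2 to 3 and 1 to 3 calls in the same order, and in T cells 0, 0, 0 to 2 and 0 to 1. Dendritic cells of Panc02-SIY and all interactions gave 0, and without the stromal cluster those dendritic cells gave 1. Of the dendritic contrasts with MC38, possible only with all barcodes or with at least 3 barcodes per library, all barcodes gave 1 call between untreated (Iigp1, -3.31) and 1 between irradiated models (Irgm1, -1.05), and the other setting gave 0.

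Replicate numbers were not taken to pair the libraries, since no label ties them and not every same-numbered pair deviated together. Correlations of the deviations of same-numbered NT and RT libraries ran from -0.04 to 0.08 in MC38, and were 0.40, 0.32 and 0.75 for 3 pairs and -0.16 for the other in Panc02-SIY. RLE and DESeq2 scaling moved the split of called genes in T cells between untreated models from 466 higher and 735 lower to 638 and 366 (RLE) and 1011 and 373 (DESeq2). Between irradiated models it moved from 439 and 437 to 542 and 330 (RLE) and 811 and 325 (DESeq2). For MC38 RT against NT in T cells it moved from 33 and 11 to 23 and 14 (RLE) and 76 and 74 (DESeq2), for Panc02-SIY macrophages from 170 and 73 to 260 and 188 (DESeq2), and for the interaction in all CD45+ barcodes from 19 and 24 to 8 and 22 (RLE). The causes of these changes were not tested. MC38 T cells, NK cells and dendritic cells held a few UMIs of some members per library, so differences there were mostly not detectable at this depth.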
